A study of Mus musculus with 12 samples.

Results

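The data described here are the RNA-sequencing libraries of wild-type (WT) and App NL-G-F knock-in mice that had both been treated with rh Bri2 BRICHOS R221E. They were chosen by their genotype and treatment labels and make up 6 of the 12 libraries of the study, 3 per genotype. The other 6 libraries, from mice of the same genotypes given PBS (veh), are used here to ask which genotype effects were larger or smaller under rh Bri2 BRICHOS R221E than under veh. App NL-G-F mice are knock-ins whose own App gene carries a humanized amyloid β (Aβ) sequence with the Swedish, Iberian and Arctic mutations of familial Alzheimer's disease (AD), so that App is not overexpressed from a transgene. Rh Bri2 BRICHOS R221E is a recombinant variant of the chaperone domain of the human Bri2 protein. All mice were male and received 24 intravenous injections over 12 weeks, starting at 9 months of age, each of 10 mg/kg of the protein in the treated groups. A further 4 weeks without treatment followed before the brains were taken. Cerebral cortex was digested with papain, and cells were captured with magnetic beads against CD11b, an integrin chain carried by microglia and by myeloid cells of the blood. Each library holds the bulk mRNA of the captured cells of a single mouse, so that fewer cells of a type and less RNA per cell cannot be told apart.

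Microglia are the resident macrophages of the brain. Where they touch amyloid plaques they take up a state known as disease-associated, which depends on the lipid receptor Trem2 and in which genes of lipid handling, phagocytosis and the lysosome rise while genes of the resting state fall. The lysosome breaks down what the cell has taken up, by acid hydrolases such as the cathepsins and with the acid supplied by the vacuolar proton pump. Many lysosomal promoters carry the palindrome CACGTG, the core of the E-box to which the transcription factors Tfeb, Tfe3 and Mitf bind.

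To show the sequences behind the lysosomal genes described here, RefSeq promoter windows (GRCm38.p6, from 250 bases before to 50 after the annotated start) were searched for CACGTG, which reads alike on both strands. A window was found for 11359 of the tested genes, and 1283 of these genes (11.3%) held the motif in any of their windows. Counted by window instead, 7.15% of all 32851 windows held it, which is not the same measure. Of genes with a window that were higher in the treated App NL-G-F than in the treated WT group, 353 of 2451 (14.4%) held the motif. Of those that were lower, 233 of 2525 (9.23%) did. Of the lysosomal enzymes and membrane proteins with a window, 11 of 31 (35.5%) held it, and of the proton pump subunits 4 of 11 (36.4%). Of the disease-associated microglial genes with a window, 3 of 21 (14.3%) held it. The 4 lysosomal genes with the motif whose fold change was largest are printed 5′ to 3′ with the motif in capitals, for Ctsl (chr13:64370471-64370770, minus strand), Ctsd (chr7:142387778-142388077, minus strand), Glb1 (chr9:114400828-114401127, plus strand) and Gla (chrX:134600956-134601255, minus strand).
Ctsl: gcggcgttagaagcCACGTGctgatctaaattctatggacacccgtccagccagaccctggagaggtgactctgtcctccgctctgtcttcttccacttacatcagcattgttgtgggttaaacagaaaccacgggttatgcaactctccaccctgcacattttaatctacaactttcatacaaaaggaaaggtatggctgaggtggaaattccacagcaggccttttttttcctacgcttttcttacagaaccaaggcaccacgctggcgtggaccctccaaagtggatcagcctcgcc
Ctsd: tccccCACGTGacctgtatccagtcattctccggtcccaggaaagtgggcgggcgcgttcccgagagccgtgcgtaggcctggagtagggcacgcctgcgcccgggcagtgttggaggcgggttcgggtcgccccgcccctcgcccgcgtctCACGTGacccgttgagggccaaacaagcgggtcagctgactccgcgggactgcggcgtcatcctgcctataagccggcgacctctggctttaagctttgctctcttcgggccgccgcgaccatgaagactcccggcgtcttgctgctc
Glb1: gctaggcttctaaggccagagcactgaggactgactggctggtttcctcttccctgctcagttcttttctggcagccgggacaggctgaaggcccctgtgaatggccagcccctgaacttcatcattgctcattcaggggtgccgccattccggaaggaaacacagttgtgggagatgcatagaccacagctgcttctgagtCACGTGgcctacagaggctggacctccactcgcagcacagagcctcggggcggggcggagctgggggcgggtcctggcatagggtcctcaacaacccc
Gla: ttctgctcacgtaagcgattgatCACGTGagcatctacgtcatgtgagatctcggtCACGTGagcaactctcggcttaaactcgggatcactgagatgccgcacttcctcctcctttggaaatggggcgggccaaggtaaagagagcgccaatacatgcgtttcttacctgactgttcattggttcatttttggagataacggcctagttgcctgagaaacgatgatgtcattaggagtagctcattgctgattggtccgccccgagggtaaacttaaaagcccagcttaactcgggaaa
The motif begins 236 bases before the start in Ctsl, 245 and 98 bases before it in Ctsd, 48 bases before it in Glb1, and 227 and 194 bases before it in Gla. These matches describe the letters in the windows, and binding to them was not measured.

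Between 12433402 and 17889654 reads per library were counted on genes, and of 55487 listed genes the 15425 that passed the filter on low counts were tested. Levels are counts scaled to library size (CPM) after TMM normalization, and the smallest detectable level, taken as 3 counts, was 0.168 to 0.241 CPM before that normalization, a limit that covers counting error only. Adjusted p-values are those of edgeR's quasi-likelihood test with Benjamini-Hochberg adjustment over all tested genes, and a gene was called at an adjusted p-value under 0.05. The share of reads from the mitochondrial genome was 1.86 to 2.06% in the treated WT libraries and 1.08 to 1.20% in the treated App NL-G-F libraries, and the TMM factors were 1.083 to 1.104 and 0.874 to 0.933. The microglial marker Csf1r, the receptor for colony-stimulating factor 1, was at 7413 to 7584 CPM in treated WT and 6317 to 6555 CPM in treated App NL-G-F mice. App itself (ENSMUSG00000022892, chr16:84949685-85173766 of GRCm38), the edited gene, was at 929, 683 and 593 CPM in treated WT mice and 653, 495 and 578 CPM in treated App NL-G-F mice. Its levels overlapped and it was not called (log2 fold change -0.35 ± 0.16, SE, adjusted p = 0.0988), although it passed without the third treated WT library (-0.49, adjusted p = 0.032) and on library totals (-0.62, adjusted p = 0.0101). Its log2 fold change was -0.15 without the first treated WT library (adjusted p = 0.441). Counts per gene do not show the humanized sequence, so the App level does not test the genotype labels.

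Under rh Bri2 BRICHOS R221E, 6560 genes (42.5% of those tested) differed by genotype. Of these, 3202 (20.8%) were higher and 3358 (21.8%) lower in App NL-G-F mice, and 769 of the higher and 1685 of the lower genes changed by more than 2-fold. The libraries of the treated genotypes did not overlap in 51.7% of all tested genes, with the App NL-G-F libraries higher in 25.3% and lower in 26.4%. Under veh, 3099 genes (20.1%) were higher and 2611 (16.9%) lower, and of those changed by more than 2-fold 1063 were higher and 538 lower. These shares under each treatment are the background for the counts of list members given below. Among genes that rose, 2326 were called under both treatments, which is 72.6% of the rises under rh Bri2 BRICHOS R221E and 75.1% of those under veh. Among genes that fell, 1784 were shared, 53.1% and 68.3% of the 2 lists. Across the 15425 genes the log2 fold changes of the 2 contrasts, which have no library in common, had a Pearson's r of 0.743 and a Spearman's rho of 0.716, given as a description since genes are not independent replicates. Scaling by library totals without the TMM factor moved the median log2 fold change under rh Bri2 BRICHOS R221E from -0.042 to -0.31 and the share of calls that were higher from 48.8% to 18.6%, so directions of small effects are relative to the TMM scale.

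**Figure D1:**
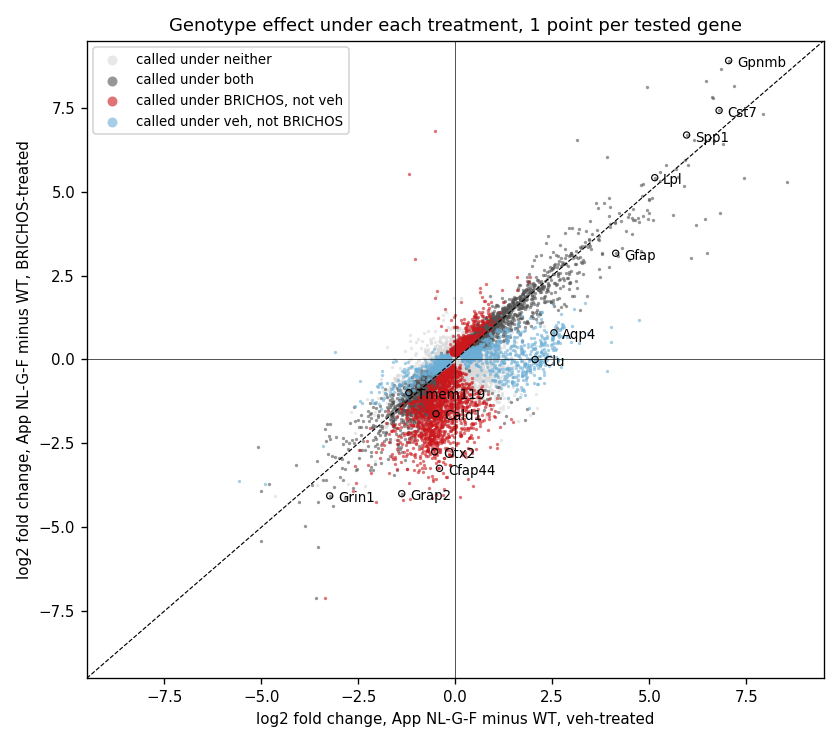
Log2 fold change of App NL-G-F against WT mice for each of the 15425 tested genes, under veh (horizontal axis) and under rh Bri2 BRICHOS R221E (vertical axis), with the dashed line where both are equal and colours for the treatments under which a gene was called. Disease-associated microglial genes lie in the upper right, Gpnmb above the line (8.90 against 7.05) and Lpl closer to it (5.42 against 5.14). The difference for Gpnmb did not pass an unadjusted p-value of 0.05. Tmem119, a gene of the resting microglial state, lies in the lower left. Genes such as Otx2 and Cfap44 lie below the line on the left and Clu and Aqp4 below it on the right.

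All 28 genes of the disease-associated microglial list rose in treated App NL-G-F mice, against 20.8% of all tested genes, as all 28 did under veh, with median log2 fold changes of 2.34 and 2.36. Gpnmb (chr6:49036546-49070929), a lysosome-associated membrane glycoprotein, was at 4.72, 3.55 and 3.66 CPM in treated WT mice and 1425, 1848 and 2436 CPM in treated App NL-G-F mice, the largest log2 fold change of the comparison among the genes named by rule (8.90 ± 0.76, adjusted p = 3.55e-06). Spp1 (chr5:104435118-104441050), which encodes the secreted matrix protein osteopontin, was at 18.5, 21.8 and 28.4 CPM in WT and 1564, 2288 and 3244 CPM in App NL-G-F mice (log2 fold change 6.69 ± 0.49, adjusted p = 9.74e-07). In both genes the 2 genotypes were far apart, with a wide spread among the App NL-G-F mice. Cst7 (chr2:150570415-150578944), the gene of the cathepsin inhibitor cystatin F, was at 12.5, 15.8 and 19.9 CPM in WT and 2424, 2760 and 3085 CPM in App NL-G-F mice (171-fold, adjusted p = 1.2e-08). Lpl (chr8:68880491-68907448), the gene of lipoprotein lipase, was at 30.7, 34.3 and 28.7 CPM and 1263, 1361 and 1380 CPM (42.7-fold, adjusted p = 1.6e-10). These 2 genes varied less within a genotype, and no App NL-G-F level came near a WT level. Apoe, the lipid carrier apolipoprotein E, was at 2101, 2454 and 2411 CPM in treated WT and 21680, 24060 and 22870 CPM in treated App NL-G-F mice (9.85-fold, adjusted p = 2.19e-09). Trem2 was at 779, 848 and 902 CPM and 2636, 2934 and 2939 CPM (3.36-fold, adjusted p = 2e-08), against 2.76-fold under veh, and the difference of the 2 log2 fold changes was 0.29 ± 0.11 (unadjusted p = 0.021). After adjustment over all genes the difference passed for 1 gene, Cald1, described with the other differences, so unadjusted p-values of the difference are given. It passed an unadjusted p-value of 0.05 for 7 of the 28 genes, 6 with a higher and 1 with a lower fold change under rh Bri2 BRICHOS R221E, where 5.23% and 9.54% of all tested genes did so. The number of higher ones was 4 without the first treated WT or the first veh-treated App NL-G-F library, 11 without the third veh-treated or the first treated App NL-G-F library and 12 without the first veh-treated WT library. The lower one was Lilrb4a, an inhibitory receptor of myeloid cells, at 61.9, 75.2 and 68.7 CPM in treated WT and 226, 268 and 186 CPM in treated App NL-G-F mice. Veh-treated mice had 41.97, 34.9 and 37.5 CPM in WT and 196, 226 and 207 CPM in App NL-G-F mice (difference -0.74 ± 0.17, unadjusted p = 0.00132). The treated WT levels of Lilrb4a lay above those of the veh-treated WT mice, while the App NL-G-F levels of the 2 treatments overlapped.

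**Figure D2:**
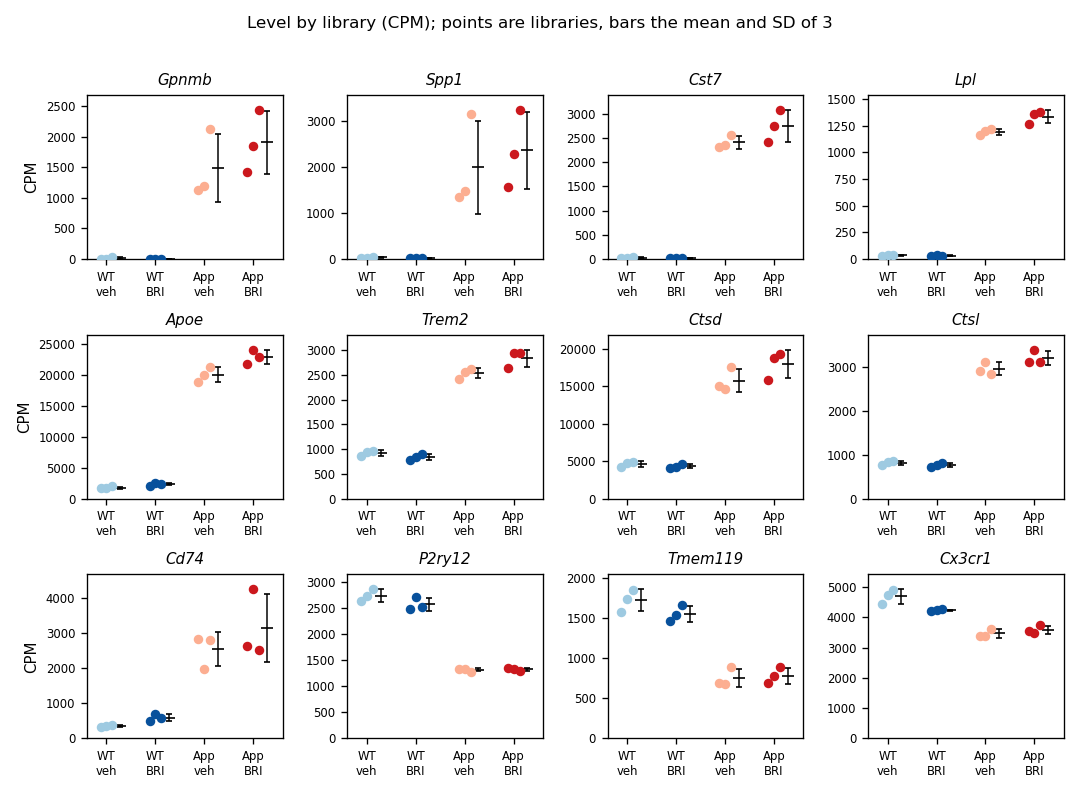
CPM of 12 microglial genes in each of the 12 libraries by genotype and treatment (BRI, rh Bri2 BRICHOS R221E), with the mean and SD of 3 mice beside the points and a separate vertical axis from 0 for each gene. For the 9 genes from Gpnmb to Cd74 every App NL-G-F library lies above every WT library of the same treatment, and for P2ry12, Tmem119 and Cx3cr1 every one lies below.

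The other genes with the largest rises were mostly near the detection limit in treated WT mice, and all 15 named by the rule were called under veh too. Dkk2, a secreted modulator of Wnt signalling, was at 0.441, 0.394 and 0.343 CPM in treated WT and 82.4, 82.7 and 102 CPM in treated App NL-G-F mice (223-fold, adjusted p = 1.25e-09). Atp6v0d2, a subunit of the vacuolar proton pump found in osteoclasts and macrophages, was at 0.252, 0.225 and 0.286 CPM and 61.6, 68.7 and 91.4 CPM (281-fold, adjusted p = 3.9e-09). Baiap2l2, an actin-binding adaptor protein, was at 0.504, 1.07 and 1.15 CPM and 137, 142 and 159.5 CPM (158-fold, adjusted p = 3.9e-09). The rule that named these genes required no overlap of the treated genotypes, a condition that 25.3% of all tested genes met with higher App NL-G-F levels. Mamdc2, an extracellular matrix proteoglycan, was at 1.24 to 2.27 CPM in treated WT and 288 to 306 CPM in treated App NL-G-F mice, and Pianp, a ligand of the paired receptor PILRα, was at 1.76 to 2.76 and 128 to 166 CPM. The channel genes Trpm1 (0.115 to 0.252 against 40.3 to 43.2 CPM) and Kcnk9 (0.378 to 0.859 against 32.5 to 45.5 CPM) and the secreted synaptic protein gene Lgi2 (0.378 to 1.202 against 50.5 to 111 CPM) rose as well. The annotated spans of Trpm1, Mamdc2 and Lgi2 overlap those of other genes on both strands. Strand does not separate reads of genes on the same strand, and the strand setting of the counting is not given. Whether exons of these genes overlap was not tested. Yipf7 and Slc6a16 had 0 counts in every treated WT library and were at least 17.4-fold and 11.9-fold higher in App NL-G-F mice, taken against a floor of 3 counts per library. No fold is given for Asb11, which had 1 count in all treated WT libraries together and 8.61 to 8.97 CPM in treated App NL-G-F mice, or for Apoc4, an apolipoprotein gene beside Apoe, which had 3 counts and 2.905 to 10.1 CPM. Only Dkk2 of the 15 genes had an unadjusted p-value under 0.05 for the difference between treatments (1.16 ± 0.40, unadjusted p = 0.0134).

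Of 24 genes of the resting (homeostatic) microglial state, 17 fell in treated App NL-G-F mice (70.8%, against 21.8% of all tested genes). Another 3 rose (12.5%, against 20.8%) and 4 were not called. The median log2 fold change was -0.27. Under veh there were 19 falls and 3 rises, with a median of -0.49. P2ry12, the purinergic receptor that guides the movement of microglial processes, was at 2483, 2716 and 2526 CPM in treated WT and 1347, 1335 and 1290 CPM in treated App NL-G-F mice (0.514 of the WT level, adjusted p = 2.5e-07). Tmem119, a membrane protein used as a microglial marker, was at 1461, 1529 and 1658 CPM and 683, 777 and 882 CPM (0.504 of the WT level, adjusted p = 5.59e-05). Crybb1, a crystallin gene expressed in microglia, showed the largest fall of the list, from 166, 208 and 210.1 CPM to 47.8, 56.1 and 45.9 CPM (0.257 of the WT level, adjusted p = 5.66e-08). In all 3 genes the genotypes did not overlap. The genotype effect was less negative or more positive under rh Bri2 BRICHOS R221E than under veh in 23 of the 24 genes, with an unadjusted p-value under 0.05 in 7, against 5.23% of all tested genes. Golm1, a Golgi membrane protein, had the lowest such p-value. It was at 759, 761 and 773 CPM in treated WT and 675, 684 and 674 CPM in treated App NL-G-F mice. Under veh the levels were 804, 836 and 866 CPM in WT and 628, 612 and 645 CPM in App NL-G-F mice (difference 0.24 ± 0.065, unadjusted p = 0.00361). The treated WT levels of Golm1 lay below those of veh-treated WT mice, and the treated App NL-G-F levels lay above those of the App NL-G-F mice on veh. The number of such differences was between 1 (without the second veh-treated App NL-G-F library) and 11 (without the first veh-treated WT library) when each library was left out in turn, each of them higher. Tgfbr1, the type I receptor for TGF-β, was at 1410 to 1447 CPM in treated against 1558 to 1635 CPM in veh-treated WT mice, while the App NL-G-F levels of 1159 to 1265 and 1100 to 1243 CPM overlapped.

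Lysosomal genes rose broadly. Of 38 lysosomal enzymes and membrane proteins, 34 rose, none fell and 4 were not called under rh Bri2 BRICHOS R221E, with a median log2 fold change of 0.90, against 31 rises and 1 fall with a median of 0.73 under veh. Ctsd, the aspartic protease cathepsin D, was at 4148, 4287 and 4623 CPM in treated WT and 15830, 18840 and 19400 CPM in treated App NL-G-F mice (4.14-fold, adjusted p = 8.46e-08). Ctsl, the cysteine protease cathepsin L, was at 719, 759.8 and 808 CPM and 3109, 3403 and 3113 CPM (4.21-fold, adjusted p = 3.9e-09). These are the first 2 of the genes whose promoter windows are printed, and neither overlapped between genotypes. Glb1 (β-galactosidase) and Gla (α-galactosidase A) had log2 fold changes of 2.02 and 1.90 (adjusted p = 1.67e-08 and 0.000115). Of the 15 lysosomal and pump genes with the motif, 14 rose, a share near that of the lists as a whole (34 of 38 and 15 of 17), the exception being Ctsf (log2 fold change -0.030, adjusted p = 0.642). The fold change was higher under rh Bri2 BRICHOS R221E than under veh in 36 of the 38 genes and passed an unadjusted p-value of 0.05 in 11 of them, each of those higher. That number was 4 without the third veh-treated WT or the first veh-treated App NL-G-F library and 20 without the first veh-treated WT library. Ppt1, the thioesterase that removes palmitate from proteins, was at 254, 257 and 266 CPM in treated WT and 496, 527 and 542 CPM in treated App NL-G-F mice. In the veh groups it was at 279, 286 and 291 CPM in WT and 495, 486 and 501 CPM in App NL-G-F mice (difference 0.22 ± 0.065, unadjusted p = 0.00625). Here too the treated WT levels lay below those of veh-treated WT mice. Hexa, a lysosomal hexosaminidase subunit, differed in the same direction (3.27-fold against 2.75-fold, difference 0.25 ± 0.093, unadjusted p = 0.0206). Of 17 proton pump subunits, 15 rose and 1 fell under each treatment. Atp6v1c1 rose 1.94-fold (adjusted p = 1.41e-07), and the subunit that fell was Atp6v0a2 (206, 188 and 217 CPM in WT and 134, 121 and 136 CPM in App NL-G-F mice, adjusted p = 8.95e-06).

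Genes of antigen presentation rose. All 16 MHC class I genes rose under rh Bri2 BRICHOS R221E (median log2 fold change 0.996), and 15 did so under veh (median 0.86). H2-D1, a class I heavy chain, was at 738, 843 and 862 CPM in treated WT and 2075, 2600 and 2159 CPM in treated App NL-G-F mice (2.800-fold, adjusted p = 2.33e-07). H2-K1 rose 2.07-fold (adjusted p = 7.96e-06), and how reads shared between close class I paralogs were divided is not stated. Of 11 MHC class II genes, 9 rose and 1 fell under both treatments. Cd74, the invariant chain that guides class II molecules, was at 493, 701 and 570.5 CPM in treated WT and 2646, 4257 and 2531 CPM in treated App NL-G-F mice (5.35-fold, adjusted p = 5.28e-06), with its highest level in the second treated App NL-G-F mouse. Its treated WT levels lay above the 317 to 376 CPM of veh-treated WT mice, and the difference between the genotype effects was -0.47 ± 0.29 (unadjusted p = 0.136). Of 32 interferon-stimulated genes, 17 rose, 1 fell and 14 were not called, against 15 rises under veh. Ifi27l2a was at 7.31, 9.800 and 9.67 CPM in treated WT and 33.8, 35.96 and 36.2 CPM in treated App NL-G-F mice (3.95-fold, adjusted p = 3.07e-05), and the chemokine gene Cxcl10 was at 42.6, 44.04 and 45.4 CPM and 100.4, 194 and 107 CPM (3.04-fold, adjusted p = 9.1e-05).

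Of 18 tested complement genes, 8 rose (44.4%, against 20.8% of all tested genes) and 5 fell (27.8%, against 21.8%), with a median log2 fold change of 0.095 that turned to -0.17 on library totals. C1qa, a chain of the initiating factor C1q, was at 3232, 3571 and 3799 CPM in treated WT and 5742, 6343 and 6223 CPM in treated App NL-G-F mice (1.73-fold, adjusted p = 2.05e-05). C3, the central factor, was at 8.82, 17.2 and 20.7 CPM in treated WT and 78.2, 159 and 59.8 CPM in treated App NL-G-F mice (6.35-fold, adjusted p = 0.000489). Cd55, which shields cells from complement, fell from 5.92, 5.58 and 7.61 to 1.74, 1.54 and 1.36 CPM (adjusted p = 0.00158). Of 24 chemokine and chemokine receptor genes, 12 rose (50%) and 8 fell (33.3%), against 11 and 7 under veh. Ccl6 rose 8.62-fold (adjusted p = 3.27e-09), while Ccr2, the receptor that recruits monocytes, was at 20.3, 33.4 and 32.7 CPM in treated WT and 7.55, 8.25 and 5.21 CPM in treated App NL-G-F mice (adjusted p = 1.09e-05), with the highest levels of all 4 groups in the treated WT mice. Of 25 genes of NF-κB, TNF and interleukin-1 signalling, 13 rose and 2 fell, against 9 and 3 under veh. Il1rn, the antagonist of the interleukin-1 receptor, was at 5.17, 7.43 and 7.097 CPM in treated WT and 31.3, 103 and 31.9 CPM in treated App NL-G-F mice (8.42-fold, adjusted p = 0.000168), again highest in the second treated App NL-G-F mouse. Of 21 TGF-β genes, 6 rose (28.6%, against 20.8% of all tested genes) and 9 fell (42.9%, against 21.8%). Under veh 3 of the 21 rose and 4 fell, where 20.1% and 16.9% of all tested genes did so. Without the second treated App NL-G-F library 5 rose under veh. Of 22 immediate early genes 3 rose and 3 fell, each a smaller share (13.6%) than over all tested genes, against 7 and 4 under veh, with a median log2 fold change of 0.13 that turned to -0.14 on library totals. These immediate early counts rested on single libraries, with no rise under rh Bri2 BRICHOS R221E without the first or second treated WT or the second treated App NL-G-F library. There were 6 falls without the latter and 1 without the first or the third treated App NL-G-F library. Under veh, 2 rose without the first veh-treated WT library, 3 without the third veh-treated WT or the second or the third veh-treated App NL-G-F library and 4 without the second treated WT library. Falls under veh numbered 2 without the second library of either veh group.

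Most genes of sterol synthesis, of the ribosome and of energy metabolism rose under both treatments. Of 23 cholesterol synthesis genes 18 rose and none fell (17 and 0 under veh), with medians of 0.72 and 0.68. Cyp51, the lanosterol demethylase, was at 25.7, 20.3 and 18.1 CPM in treated WT and 57.5, 70.95 and 61.3 CPM in treated App NL-G-F mice (2.96-fold, adjusted p = 1.36e-06). Of 25 genes of cholesterol efflux and lipid storage 13 rose (52%, against 20.8% of all tested genes) and 5 fell (20%, against 21.8%). Both counts were the same under veh, and the median of 0.25 under rh Bri2 BRICHOS R221E turned to -0.020 on library totals. Abca1, the exporter of cholesterol to apolipoproteins, was among those that fell (517, 464 and 473 CPM to 362, 363 and 381 CPM, adjusted p = 0.000591). Of 81 cytosolic ribosomal protein genes 77 rose under each treatment, with medians of 0.73 and 0.65. Of 22 glycolysis genes 13 rose (59.1%, against 20.8% of all tested genes) and 4 fell (18.2%, against 21.8%). Under veh 16 rose and 2 fell. Tpi1, the triose-phosphate isomerase, was at 98.8, 102 and 120.4 CPM in treated WT and 321, 352 and 342 CPM in treated App NL-G-F mice (3.16-fold, adjusted p = 4.25e-08). Of 76 nuclear genes of oxidative phosphorylation 56 rose and 3 fell, against 62 and 0 under veh, while 7 of 8 tested genes of the mitochondrial genome fell, against 5 under veh. mt-Nd5, a subunit of complex I, was at 1493, 1973 and 1688 CPM in treated WT and 1319, 1225 and 1114 CPM in treated App NL-G-F mice (adjusted p = 0.00258). The corresponding veh levels were 1202, 1243 and 1317 CPM in WT and 1309, 1133 and 1309 CPM in App NL-G-F mice, and the 2 log2 fold changes differed by -0.49 ± 0.15 (unadjusted p = 0.00603).

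Of 26 cell cycle genes, 18 rose under rh Bri2 BRICHOS R221E and none fell, with a median log2 fold change of 0.92, against 10 rises and 1 fall with a median of 0.42 under veh. Cdk1, the kinase that starts mitosis, was at 3.02, 3.32 and 3.03 CPM in treated WT and 11.4, 13.1 and 15.3 CPM in treated App NL-G-F mice (4.23-fold, adjusted p = 7.45e-07). Mcm5, a subunit of the replicative helicase, was at 11.2, 12 and 10.4 CPM and 16.3, 18.9 and 14.3 CPM (1.47-fold, adjusted p = 0.00168), with veh levels of 13.8, 14.9 and 14.2 CPM in WT and 13.3, 14.2 and 14.5 CPM in App NL-G-F mice. The treated WT levels of Mcm5 were the lowest of the 4 groups, and the difference of the genotype effects was 0.59 ± 0.15 (unadjusted p = 0.00263). Such differences were higher at an unadjusted p-value under 0.05 in 5 of the 26 genes, against 5.23% of all tested genes, and lower in none. That number was 1, near the share of all genes, without the third treated App NL-G-F library, and 2 or 3 without 7 others. These were the first and second veh-treated WT, the first and the third treated WT, the first and second veh-treated App NL-G-F and the second treated App NL-G-F library. The median of the list was 0.43 when only genes with a mean of at least 50 counts were tested.

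Among App, its relatives and the secretases, 7 of 14 genes rose under rh Bri2 BRICHOS R221E (50%, against 20.8% of all tested genes). Without the third treated App NL-G-F library 4 rose. Falls numbered 4 (28.6%, against 21.8%), and under veh 3 genes rose and 1 fell. Aplp2, an App homologue, was at 294, 239.7 and 245 CPM in treated WT and 820.5, 795 and 879 CPM in treated App NL-G-F mice (3.200-fold, adjusted p = 4.52e-08). Aph1b, a γ-secretase subunit, fell from 9.26, 8.34 and 9.501 CPM to 6.71, 4.73 and 5.06 CPM (adjusted p = 0.011), and its difference between treatments was -0.98 ± 0.27 (unadjusted p = 0.00377). Itm2b, which encodes mouse Bri2, was at 2542, 2714 and 2676 CPM in treated WT and 3650, 3698 and 3648 CPM in treated App NL-G-F mice (1.39-fold, adjusted p = 8.24e-05), and its difference between treatments was 0.13 ± 0.085 (unadjusted p = 0.15). Of the 7 tested genes of BRICHOS proteins and their processing, Itm2b included, 3 rose (42.9%) and 1 fell (14.3%). Under veh 4 rose and 1 fell, and 2 rose there without the first or second library of either veh group. Of 29 AD risk genes expressed in microglia 10 rose (34.5%, against 20.8% of all tested genes) and 7 fell (24.1%, against 21.8%), compared with 11 and 9 under veh, with a median log2 fold change of 0.056 that turned to -0.22 on library totals. Ptk2b, a calcium-regulated tyrosine kinase from this list, was at 170.4, 173 and 180 CPM in treated WT and 222, 228 and 230 CPM in treated App NL-G-F mice. On veh it was at 189, 184 and 191 CPM in WT and 204, 206 and 208 CPM in App NL-G-F mice (difference 0.24 ± 0.056, unadjusted p = 0.00101).

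The largest falls under rh Bri2 BRICHOS R221E were in genes at low levels in App NL-G-F mice, most of them known from neurons. Grin1, an NMDA receptor subunit, was at 2.897, 7.83 and 5.495 CPM in treated WT and 0.387, 0.192 and 0.378 CPM in treated App NL-G-F mice (adjusted p = 8.5e-05). Penk, the precursor of the enkephalins, was at 2.02, 4.45 and 4.64 CPM and 0.0646, 0.256 and 0 CPM (adjusted p = 0.000198). The neuropeptide and secretory genes Scg2, Vgf and Nell2 were at 1.45 to 4.79, 1.197 to 3.26 and 2.33 to 7.43 CPM in treated WT mice. They fell to 0 to 0.576, 0 to 0.512 and 0.227 to 0.516 CPM in treated App NL-G-F mice. Tmem130, a transmembrane protein, was at 1.39 to 4.01 CPM in treated WT and 0.192 to 0.258 CPM in treated App NL-G-F mice. Most of the App NL-G-F counts of Scg2 and Vgf came from the second library, without which their fitted log2 fold changes of -3.84 and -3.59 were -6.26 and -5.87, values that depend on the prior count of the fit. Grap2, an adaptor protein of lymphocytes and other blood cells, was at 2.08, 2.37 and 2.404 CPM in treated WT and 0.129, 0.128 and 0.151 CPM in treated App NL-G-F mice. For comparison, the veh levels were 0.685, 0.8303 and 0.8197 CPM in WT and 0.324, 0.263 and 0.296 CPM in App NL-G-F mice. Each treated App NL-G-F library held 2 counts of Grap2, under the floor of 3, so no size is given for its difference between treatments (unadjusted p = 0.00025). Lrg1, a secreted glycoprotein of neutrophils and endothelium, was at 0.693, 3.77 and 10.7 CPM and 0.387, 0.128 and 0.302 CPM (adjusted p = 0.00347). Chil3, a chitinase-like protein of myeloid cells, was at 2.33, 10.3 and 20.1 CPM and 0.904, 0.9597 and 0.831 CPM (adjusted p = 0.0155, and 0.0564 without the third treated WT library), and both genes spread widely among the WT mice. The rule for these falls required an adjusted p-value under 0.05 under rh Bri2 BRICHOS R221E. Of the 10 genes it chose, 9 are given here. Under veh, 9 of the 10 were also called, the exception being Lrg1 (adjusted p = 0.283 there).

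Marker lists of 14 cell types other than microglia were described by the mean log2 CPM of their genes in each library. Under rh Bri2 BRICHOS R221E this value was lower in every App NL-G-F than in every WT library for 10 lists and higher for none, and under veh it was lower for 6 and higher for 1. Of all tested genes, 26.4% were lower and 25.3% higher without overlap under rh Bri2 BRICHOS R221E, and 25.3% and 25.5% under veh. Of 8 choroid plexus epithelium genes, all fell under rh Bri2 BRICHOS R221E (median log2 fold change -2.40) and none under veh (median -0.57), and 5 had an unadjusted p-value under 0.05 for the difference. Ttr, the thyroid hormone carrier transthyretin, was at 3051, 3764 and 6415 CPM in treated WT and 786, 611 and 905 CPM in treated App NL-G-F mice (adjusted p = 0.00558). Veh-treated mice had 841, 802 and 3679 CPM in WT and 980.1, 599 and 1834 CPM in App NL-G-F mice. The third veh-treated WT library, at the level of the treated WT libraries, stood apart from the other 2 of its group. Without it the median of the choroid plexus list under veh was 0.48 and all 8 differences had an unadjusted p-value under 0.05, while without the third veh-treated App NL-G-F library the median was -1.16 and none had. Otx2, a transcription factor of this epithelium, showed the same order, with 13.1 to 21.2 CPM in treated WT and 1.47 to 3.097 CPM in treated App NL-G-F mice (log2 fold change -2.75 ± 0.59, adjusted p = 0.00308), and 3.83, 3.62 and 15.2 CPM in the veh-treated WT libraries. Of 12 genes of ciliated ependymal cells, 11 fell under rh Bri2 BRICHOS R221E and 1 under veh, with medians of -2.18 and -0.48, and 7 had an unadjusted p-value under 0.05 for the difference (5 to 10 with each library left out in turn). Foxj1, the transcription factor of motile cilia, was at 14.2, 17.01 and 22.9 CPM in treated WT and 5.36, 3.39 and 5.44 CPM in treated App NL-G-F mice (adjusted p = 0.000158). Under veh the levels were 9.04, 6.41 and 10.6 CPM in WT and 7.25, 4.27 and 5.63 CPM in App NL-G-F mice (difference -1.34 ± 0.38, unadjusted p = 0.00434). Cfap44, a cilium and flagellum protein, was at 3.59, 4.34 and 7.73 CPM in treated WT and 0.581, 0.384 and 0.6798 CPM in treated App NL-G-F mice (adjusted p = 0.00033; difference -2.84 ± 0.69, unadjusted p = 0.00158). For both genes the treated WT mice had the highest levels of the 4 groups.

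**Figure D3:**
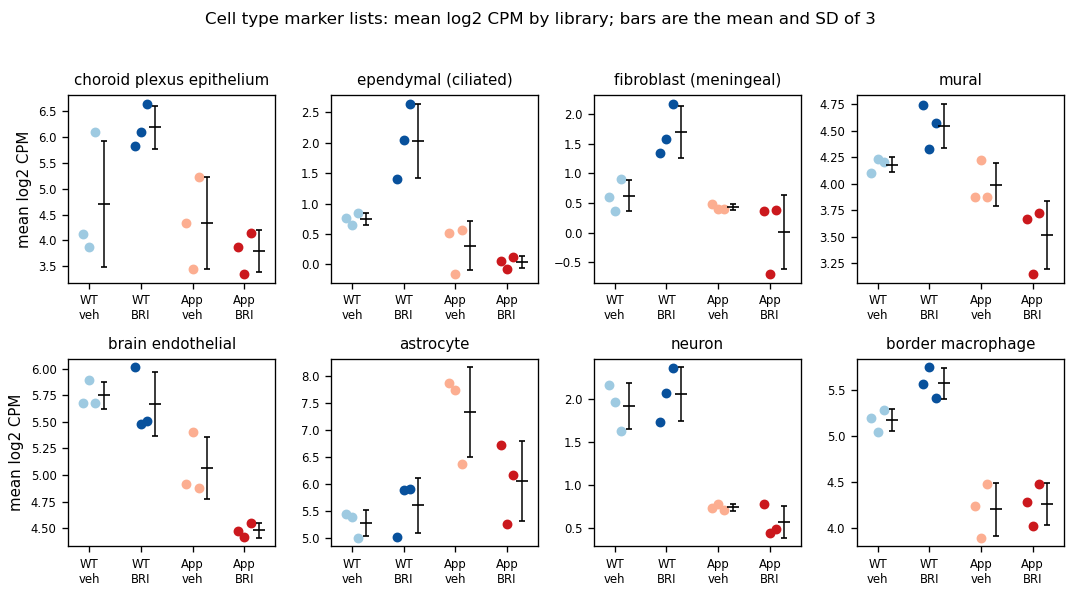
Mean log2 CPM of 8 cell type marker lists in each of the 12 libraries by genotype and treatment (BRI, rh Bri2 BRICHOS R221E), with the mean and SD of 3 mice beside the points. The ependymal value was 1.40 to 2.63 in treated WT mice against 0.65 to 0.84 in veh-treated WT mice, and the astrocyte value was in App NL-G-F mice 6.37 to 7.87 under veh against 5.26 to 6.72 in treated ones.

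Genes of the meninges and vessels fell too. Of 9 fibroblast genes 7 fell, against 1 fall and 1 rise under veh (medians -1.90 and -0.48). Col1a2, a chain of type I collagen, was at 9.38, 12.1 and 13.8 CPM in treated WT and 2.65, 1.85 and 3.32 CPM in treated App NL-G-F mice (adjusted p = 0.000117). In the veh groups it was at 3.22, 4.39 and 5.81 CPM in WT and 3.63, 6.04 and 3.71 CPM in App NL-G-F mice (difference -2.18 ± 0.41, unadjusted p = 0.000206). Of 10 mural genes 9 fell and 1 rose, against 3 and 1 under veh (medians -1.49 and -0.52), and of 10 endothelial genes 9 fell against 8 (medians -1.41 and -0.78). Under veh the mural falls numbered 1 without the third veh-treated WT or the first veh-treated App NL-G-F library, 5 without the first treated library of either genotype and 7 without the second veh-treated App NL-G-F library. The endothelial falls numbered 5 without the second veh-treated WT or the first veh-treated App NL-G-F library. Pdgfrb, the receptor that marks pericytes, was at 28.8, 21.5 and 21.5 CPM and 10.7, 5.63 and 10.3 CPM (adjusted p = 0.000562), with a difference of -1.34 ± 0.33 (unadjusted p = 0.00176). Slco1a4, a transporter of the blood-brain barrier endothelium, was at 110.1, 76.9 and 96.96 CPM and 32.3, 29.8 and 29.3 CPM (adjusted p = 7.89e-06), with a difference of -0.86 ± 0.21 (unadjusted p = 0.00175). Neither overlapped between the treated genotypes. Border macrophage genes fell in 7 of 8 cases under both treatments, and monocyte genes in 6 of 8 against 4 (2 without the first or second veh-treated WT library). Mrc1, the mannose receptor of border macrophages, was at 305, 315 and 253 CPM in treated WT and 112, 76.97 and 104 CPM in treated App NL-G-F mice (adjusted p = 6.25e-06). Neuronal genes fell in 8 of 10 cases against 7, B cell genes in 6 of 8 against 3, and neutrophil genes in 5 of 10 against 8. Under veh, 4 neuronal genes fell without the third veh-treated WT or the first veh-treated App NL-G-F library. Likewise 5 and 3 neutrophil genes fell without the first veh-treated WT and the first veh-treated App NL-G-F library. The neutrophil falls under rh Bri2 BRICHOS R221E numbered 9 without the third veh-treated WT and 8 without the first treated WT library. S100a8, an abundant neutrophil calcium-binding protein, was at 21.7, 63.4 and 105 CPM in treated WT and 10.4, 9.15 and 4.76 CPM in treated App NL-G-F mice (adjusted p = 0.00734), and the first treated WT and the third veh-treated WT library (91.7, 74.9 and 10.9 CPM in that group) were the lowest of their groups. Of 3 tested T cell genes 1 fell (33.3%, against 21.8% of all tested genes) and 0 fell under veh. The T cell receptor complex genes Cd3e, Cd3d and Cd3g did not pass the filter on low counts. No oligodendrocyte gene was called under rh Bri2 BRICHOS R221E and 2 of 10 fell under veh, the median of -0.74 being 0.10 without the first treated WT library. Of 8 oligodendrocyte precursor genes 2 fell (25%, near the 21.8% of all tested genes) and 1 rose (12.5%, against 20.8%). Under veh 0 fell and 1 rose. The part of these marker differences in the genotype effect of other genes was not tested beyond a fit with a marker score as a covariate. With the ependymal score in the fit, which did not overlap between the treated genotypes, 949 genes were called higher and 610 lower.

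**Figure D4:**
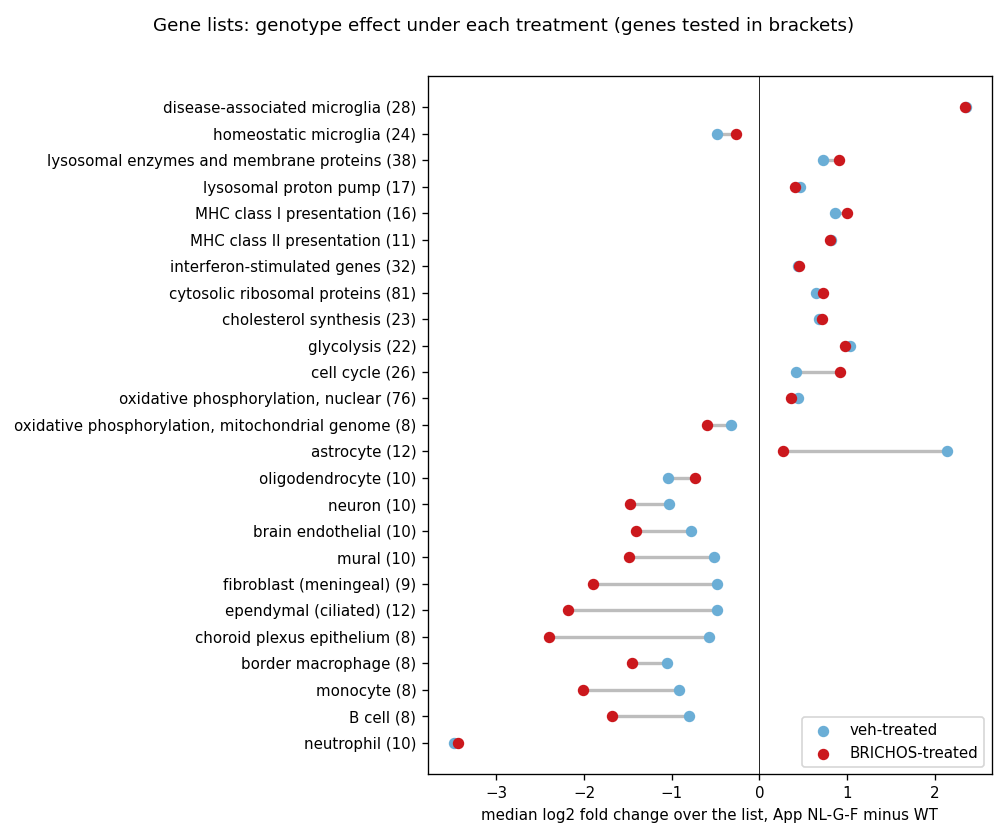
Median log2 fold change of App NL-G-F against WT mice over the tested genes of 25 lists, under veh and under rh Bri2 BRICHOS R221E, with the number of genes in brackets. The points lie close together for disease-associated microglial genes (2.36 and 2.34) and apart for astrocyte genes (2.14 and 0.27) and choroid plexus epithelium genes (-0.57 and -2.40).

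Astrocyte genes differed between the treatments in another way, by a rise under veh. Of 12 astrocyte genes 11 rose under veh and 1 under rh Bri2 BRICHOS R221E, with medians of 2.14 and 0.27, and the difference had an unadjusted p-value under 0.05 in 10 of them, each of those lower (9 to 11 with each library left out in turn). The median under rh Bri2 BRICHOS R221E was -0.095 without the first treated App NL-G-F library. Gfap, the astrocyte filament protein, was the gene that rose under both treatments. It was at 27.3, 35.5 and 25.99 CPM in treated WT and 394, 130.1 and 273 CPM in treated App NL-G-F mice (8.96-fold, adjusted p = 9.42e-05). The corresponding veh levels were 34.5, 33.98 and 38.7 CPM in WT and 847, 712 and 324 CPM in App NL-G-F mice, and its difference was -0.97 ± 0.54 (unadjusted p = 0.1). Clu, the extracellular chaperone clusterin, was at 164, 240.2 and 327 CPM in treated WT and 346, 124 and 261 CPM in treated App NL-G-F mice, which overlapped (log2 fold change -0.002 ± 0.41, adjusted p = 0.997). Under veh, Clu was at 129, 124 and 190.3 CPM in WT and 814, 719.5 and 314 CPM in App NL-G-F mice (adjusted p = 0.00265), and the difference of the 2 effects was -2.06 ± 0.58 (unadjusted p = 0.00425). The median of Clu was higher in treated than veh-treated WT mice and lower in treated App NL-G-F mice than in those given veh. Aqp4, the water channel of astrocyte endfeet, was at 14.9, 31.03 and 29.4 CPM and 66.2, 18.3 and 46.5 CPM (adjusted p = 0.182, and 0.0364 without the second treated App NL-G-F library). Given veh, WT mice had 21.6, 20.1 and 16.8 CPM and App NL-G-F mice 141, 144 and 55.5 CPM (difference -1.75 ± 0.64, unadjusted p = 0.0196). Aqp4 also varied among App NL-G-F mice given veh, with the third well below the first 2. C4b, a complement factor expressed by astrocytes and microglia, was at 111, 128 and 114 CPM and 160.4, 71.1 and 108 CPM (adjusted p = 0.874). On veh it was at 89.6, 66.4 and 79.6 CPM in WT and 207, 168 and 125 CPM in App NL-G-F mice (difference -1.15 ± 0.35, unadjusted p = 0.00779). With the astrocyte score as a covariate, 984 genes had an unadjusted p-value under 0.05 for the difference in edgeR, against 2279 without it. That score did not overlap between the veh-treated genotypes (5.01 to 5.44 in WT and 6.37 to 7.87 in App NL-G-F mice). The fit therefore cannot tell the score apart from the genotype effect under veh.

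Across all tested genes, the difference of the genotype effects had an unadjusted p-value under 0.05 for 2279 genes, with a higher value under rh Bri2 BRICHOS R221E in 807 (5.23%) and a lower one in 1472 (9.54%). Of the 8309 genes called for the mean of the 2 genotype effects, the effect was larger in size under rh Bri2 BRICHOS R221E in 869 and smaller in 508 at that threshold. Among genes that were higher in App NL-G-F mice on average, 270 had a larger and 270 a smaller effect, and among those that were lower, 599 had a larger and 238 a smaller effect. For the 901 genes with a mean rise of more than 2-fold the median difference was -0.053, and for the 1366 with a mean fall of more than 2-fold it was -0.65, with a negative difference in 1054 of them. After adjustment a single gene passed, Cald1 (ENSMUSG00000029761, chr6:34598500-34775473 of GRCm38), which encodes the actin- and myosin-binding protein caldesmon. It was at 36.97, 34.1 and 37.2 CPM in treated WT and 12.8, 10.8 and 11.6 CPM in treated App NL-G-F mice. For comparison, the veh levels were 27.8, 26.2 and 27.3 CPM in WT and 18.3, 20.4 and 18.8 CPM in App NL-G-F mice. The 4 groups did not overlap, with treated WT mice highest and treated App NL-G-F mice lowest. The log2 fold changes were -1.62 ± 0.081 and -0.50 ± 0.079, and the difference was -1.12 ± 0.11 (adjusted p = 0.00834 from edgeR, next lowest adjusted p 0.134). Cald1 is also on the mural list given above, and its locus overlaps 3 genes on the other strand. The count of adjusted calls depended on single libraries, with 0 without the second veh-treated WT or the third treated App NL-G-F library, 62 without the third veh-treated WT and 88 without the third veh-treated App NL-G-F library, and DESeq2's Wald test gave 239.

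Genes called for the mean of the 2 genotype effects were sorted by the p-value of the difference. The first 8 with a lower difference included 7 that fell under rh Bri2 BRICHOS R221E, a direction that choosing a lower difference favours. Of all such genes with a lower difference at an unadjusted p-value under 0.05, 599 were lower and 270 higher on average in App NL-G-F mice. Ahnak, a large scaffold protein beneath the plasma membrane, was at 71.4, 61.05 and 58.8 CPM in treated WT and 20.9, 18.04 and 19.03 CPM in treated App NL-G-F mice. Veh-treated mice had 52.1, 53.02 and 48.4 CPM in WT and 30.7, 37.5 and 26.4 CPM in App NL-G-F mice (difference -1.02 ± 0.17, unadjusted p = 6.46e-05). Cx3cl1, the ligand of the microglial receptor Cx3cr1, was at 20.5, 25.5 and 23.6 CPM in treated WT and 5.29, 3.33 and 4.61 CPM in treated App NL-G-F mice. Under veh the levels were 18.6, 19.6 and 15.3 CPM in WT and 7.900, 9.39 and 8.22 CPM in App NL-G-F mice (difference -1.33 ± 0.23, unadjusted p = 0.000107). Both fell under each treatment (adjusted p = 0.000754 and 0.00031 under veh), and the treated App NL-G-F mice had the lowest levels. Lrp8, a receptor for apolipoprotein E and reelin, was at 17.7, 20.7 and 21.1 CPM in treated WT and 9.36, 7.17 and 9.52 CPM in treated App NL-G-F mice (adjusted p = 5.16e-05). In the veh groups it was at 15.3, 13.1 and 16.7 CPM in WT and 15.6, 18.7 and 14.97 CPM in App NL-G-F mice (adjusted p = 0.492), and the 2 log2 fold changes differed by -1.32 ± 0.20 (unadjusted p = 3.03e-05). Syne1, a nuclear envelope protein, followed the same order, with 62.4, 57.2 and 55.9 CPM in treated WT and 33.4, 20.5 and 27.6 CPM in treated App NL-G-F mice (difference -1.26 ± 0.22, unadjusted p = 0.000101). Hspg2 (perlecan, of basement membranes) and Sorbs2 (an adaptor of the actin cytoskeleton) had differences of -0.99 ± 0.16 (unadjusted p = 6.95e-05) and -0.98 ± 0.17 (unadjusted p = 8.72e-05). Vim, the filament protein vimentin, was not called between the treated genotypes, with 111, 97.2 and 110 CPM in treated WT and 104, 119 and 136 CPM in treated App NL-G-F mice (log2 fold change 0.18, adjusted p = 0.141; -0.094 on library totals, and adjusted p = 0.0244 without the first treated App NL-G-F library). Under veh it rose from 72.3, 79.2 and 77.5 CPM to 142, 156 and 139.7 CPM (adjusted p = 1.16e-05). The treated WT levels of Vim lay above those of veh-treated WT mice, and its difference was -0.76 ± 0.13 (unadjusted p = 8.82e-05).

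The first 8 genes with a higher difference, taken from the same genes in the same order, had differences of 0.24 to 0.55 on the log2 scale. Tspan18, a tetraspanin, fell less under rh Bri2 BRICHOS R221E, with 44.3, 45.5 and 40.4 CPM in treated WT and 13.5, 14.5 and 12.2 CPM in treated App NL-G-F mice. Given veh, WT mice had 47.6, 49.4 and 51.2 CPM and App NL-G-F mice 10.5, 9.91 and 10.8 CPM (difference 0.55 ± 0.11, unadjusted p = 0.000327). Stard3, a sterol carrier of late endosomes, was at 111, 105 and 116 CPM in treated WT and 102, 103 and 103 CPM in treated App NL-G-F mice (adjusted p = 0.109, and 7.66e-05 with a log2 fold change of -0.38 on library totals). On veh it was at 116, 127 and 125 CPM in WT and 88.3, 88.7 and 92.8 CPM in App NL-G-F mice (adjusted p = 3.67e-05), and the 2 log2 fold changes differed by 0.34 ± 0.072 (unadjusted p = 0.000538). In both genes the 2 genotypes lay closer together under rh Bri2 BRICHOS R221E. Ddx31, a nucleolar RNA helicase, rose 2.93-fold against 2.03-fold, with 25.4, 22.9 and 23.1 CPM in treated WT and 69.5, 63.3 and 76.3 CPM in treated App NL-G-F mice (difference 0.53 ± 0.12, unadjusted p = 0.000976). Lonrf3, a RING finger protein, rose 2.19-fold against 1.600-fold (difference 0.46 ± 0.10, unadjusted p = 0.0011). Kcnk6, a potassium channel, fell to 0.818 of the WT level against 0.647 under veh (difference 0.34 ± 0.083, unadjusted p = 0.0017). The other 3 were Ptk2b, given above, Ppp4r3a, a regulatory subunit of protein phosphatase 4 (difference 0.29 ± 0.071, unadjusted p = 0.00166), and Rtn4rl1, a homologue of the Nogo receptor (difference 0.39 ± 0.093, unadjusted p = 0.00143). The last 2 were not called between the treated genotypes (adjusted p = 0.772 and 0.649) and fell under veh (adjusted p = 0.00145 and 0.000381). On library totals both were lower in treated App NL-G-F mice (log2 fold changes -0.25 and -0.31, adjusted p = 0.00146 and 0.00345).

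**Figure D5:**
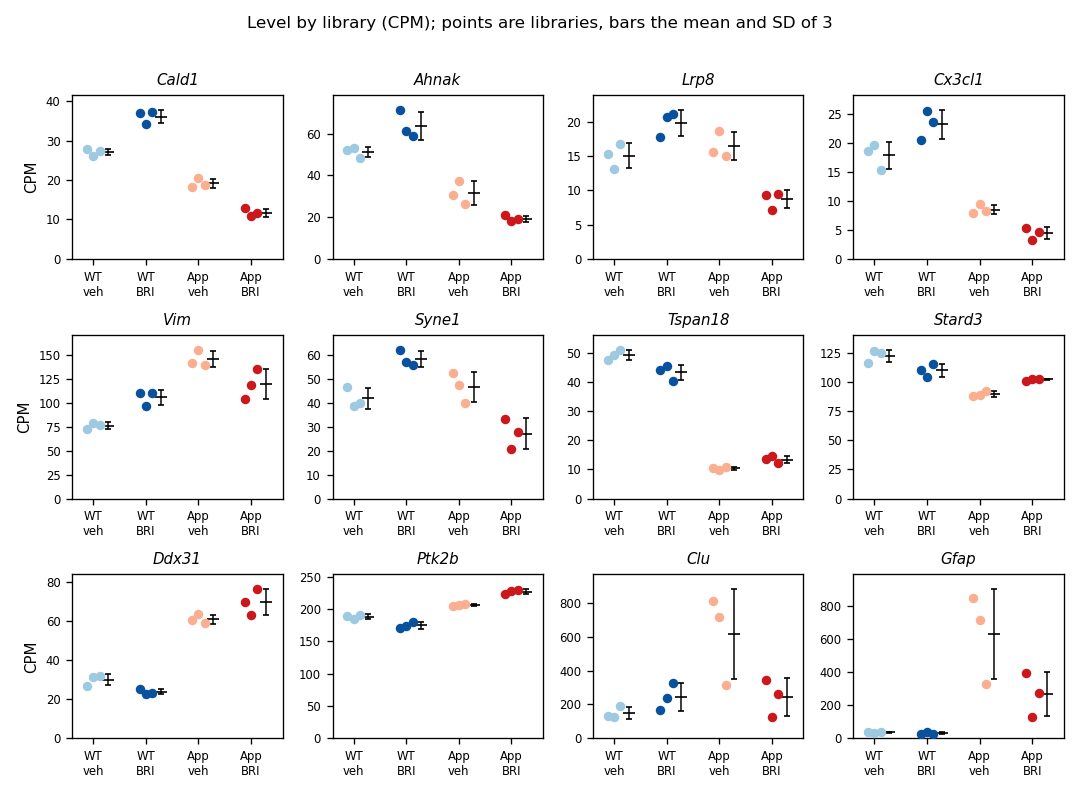
CPM of 12 genes in each of the 12 libraries by genotype and treatment (BRI, rh Bri2 BRICHOS R221E), with the mean and SD of 3 mice beside the points and a separate vertical axis from 0 for each gene. Cald1, Ahnak, Lrp8, Cx3cl1 and Syne1 have their highest mean in treated WT and their lowest in treated App NL-G-F mice, and Clu and Gfap spread widely among App NL-G-F mice.

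A total of 26 genes were called in opposite directions under the 2 treatments, 22 of them higher in App NL-G-F mice under veh and lower under rh Bri2 BRICHOS R221E, and 4 the reverse. Calls in opposite directions make the difference large by selection, and its unadjusted p-value from edgeR was at most 0.00173 in all 26. The p-values of the difference given here are therefore a description and no separate test. The following 3 were chosen from these genes after their values were seen, and their adjusted p-values for the difference were not under 0.134. Ide, the insulin-degrading enzyme that also cleaves Aβ, was at 65.8, 68.6 and 83.9 CPM in treated WT and 58.4, 59.4 and 57.8 CPM in treated App NL-G-F mice (log2 fold change -0.31, adjusted p = 0.00831). For comparison, the veh levels were 46.1, 50 and 47.5 CPM in WT and 60.02, 62.9 and 61.2 CPM in App NL-G-F mice (0.36, adjusted p = 0.00485). The treated WT mice had the highest levels of Ide and the veh-treated WT mice the lowest, while the App NL-G-F mice of the 2 treatments lay close together (difference -0.67, unadjusted p = 8.95e-05). Ezr, which encodes the membrane-cytoskeleton linker ezrin, was at 49.3, 65.6 and 75.04 CPM in treated WT and 36.6, 31.4 and 32.8 CPM in treated App NL-G-F mice. Veh-treated mice had 29.4, 26.98 and 47.4 CPM in WT and 70.5, 58.9 and 47.8 CPM in App NL-G-F mice (difference -1.69, unadjusted p = 0.000161). Usp39, a factor of the spliceosome, was among the 4 reverse cases, with 27.7, 29.9 and 27.9 CPM in treated WT and 31.1, 33.01 and 32.8 CPM in treated App NL-G-F mice. Its veh levels were 33.7, 34.9 and 33.5 CPM in WT and 26.4, 26.8 and 25.4 CPM in App NL-G-F mice (difference 0.56, unadjusted p = 2.51e-05).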

How the data were processed

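Bulk RNA of CD11b-captured cortical cells from 12 mice was sequenced after stranded mRNA library preparation. The authors aligned the reads to GRCm38 with STAR and counted them per gene with featureCounts 1.5.1, and the raw counts were deposited without normalization. The processing notes name STAR 2.6.1d and FastQC 0.11.8, and the strand and multi-mapping settings of the counting are not given in the sources used here. Samples were grouped by their genotype and treatment labels, with 3 mice per group, and p-values measure the spread between these mice.

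From the counts, 15425 of 55487 genes passed edgeR's filterByExpr (minimum count 10). All 12 libraries were fitted with 4 group means, TMM normalization and edgeR 4.0.16 quasi-likelihood tests (R 4.3.3, limma 3.58.1), with Benjamini-Hochberg adjustment over all tested genes. The tested contrasts were App NL-G-F minus WT under rh Bri2 BRICHOS R221E, the same under PBS, their difference and their mean. The SE given after ± was derived as the absolute log2 fold change divided by the square root of the F statistic of its test. With 3 against 3 mice, an exact permutation test of 1 gene could not go below p = 0.1, so none was run. The total counts per library, 12433402 to 17889654, set a floor of 3 counts at 0.168 to 0.241 CPM.

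The genes named by rule were the 15 largest rises and 10 most negative falls among adjusted p-values under 0.05. These also had no overlap between the treated genotypes and a mean of at least 1 CPM over the 6 treated libraries. The rule added the 8 lowest p-values of the difference in each direction among genes called for the mean effect. Of each list, it named the first members and those with the largest change or the lowest p-value of the difference. The comparison, the lists and the rules were chosen with earlier results of these data known. A few genes that the rules name are not reported here. Promoter windows came from RefSeq (GRCm38.p6) and gene coordinates from GENCODE annotation of GRCm38.

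The alternatives were DESeq2 1.42.0 size factors and Wald tests, no filter on low counts, a mean of at least 50 counts, a log2 cutoff of 1, the treated libraries alone, the replicate number as a block, an astrocyte or ependymal marker score as a covariate, each library left out, and, added after seeing the data, library totals without the TMM factor. Replicate numbers could not be shown to pair the mice. The correlations of same-numbered libraries' deviations from their group means were 0.218, -0.0148 and 0.0396 under rh Bri2 BRICHOS R221E and 0.0564, 0.141 and 0.174 under veh.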

Additional observations from a re-analysis of the deposited data

Results flagged for a closer look

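The genotype effect on Cald1 differed between the treatments by a test of the difference itself. Its log2 fold change of App NL-G-F against WT mice was -1.62 ± 0.081 (SE) under rh Bri2 BRICHOS R221E and -0.50 ± 0.079 under veh, a difference of -1.12 ± 0.11 (3 mice per group, edgeR with adjusted p = 0.00834 over 15425 genes). The value was lower in 3 of 3 treated App NL-G-F libraries (10.8 to 12.8 CPM) and higher in 3 of 3 treated WT libraries (34.1 to 37.2 CPM) than in any veh-treated library of the same genotype (18.3 to 20.4 CPM and 26.2 to 27.8 CPM). Cald1 is on the list of mural markers, for which the mean log2 CPM was 4.33 to 4.74 in treated WT and 3.14 to 3.73 in treated App NL-G-F mice, and the part of that difference in the result was not tested.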

How the results depend on the processing

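The count of 6560 genes under rh Bri2 BRICHOS R221E was 5461 to 6245 with each treated library left out and 2454 (31.3% higher) with a log2 cutoff of 1. On library totals without the TMM factor, 1593 genes were higher and 6988 lower (18.6% higher, 27.8% under veh), and 227 differences were higher at an unadjusted p-value under 0.05. With the ependymal score as a covariate, 1559 genes were called (949 higher, 610 lower, 60.9% higher), 3477 for the mean effect, 1454 under both treatments and 3 for the difference (1335 unadjusted, 687 lower). The astrocyte score did not overlap between the veh-treated genotypes. With it, 2104 genes were called under veh, 5292 for the mean effect and 2031 under both treatments. For the difference, 0 passed with edgeR (984 unadjusted, 350 higher and 634 lower). The single adjusted difference became 239 with DESeq2's Wald test, 107 without the filter and 0 to 88 with each library left out, and a mean of at least 50 counts left 1487 unadjusted differences (460 higher). The causes were not tested, apart from the fewer genes that the cutoff and the filter leave.

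The replicate block gave 6822 genes under rh Bri2 BRICHOS R221E, 5991 under veh, 4328 under both and 1 adjusted difference (2646 unadjusted). Its numbers could not be shown to pair the mice. The third treated WT library correlated more with the second treated App NL-G-F library (0.199) than with the third (0.0396). The mean correlation of same-numbered libraries was 0.0809 under rh Bri2 BRICHOS R221E and 0.124 under veh, against -0.0406 and -0.0603 for other pairs. Among the named genes the block changed the call of App (adjusted p = 0.0493 from edgeR).

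Of the tests of named genes under these settings, 1384 log2 fold changes and 317 differences kept their direction and side of the threshold (an adjusted p-value of 0.05 for fold changes, an unadjusted one for differences), 33 and 3 no longer passed, 8 and 0 newly passed, and 19 and 0 reversed. The 3 differences, of Ddx31, Lonrf3 and Ppp4r3a, had not passed after adjustment. Of the 33 lost calls, 30 came with the ependymal covariate, with at least 80% of the log2 fold change kept in 8 of them (Abca1 -0.39 to -0.48, Syne1 -1.10 to -1.24, Gfap 3.16 to 2.98) and under 50% in 10 (Otx2 -2.75 to -0.60). The others were Chil3 without the third treated WT library and, with the treated libraries fitted alone, Csf1r (-0.23 to -0.22, adjusted p = 0.082) and Cx3cr1 (-0.24 to -0.23, adjusted p = 0.0531). Stard3 was called with a mean of at least 50 counts (adjusted p = 0.0223), and App, Rtn4rl1 and Stard3 on library totals (log2 fold changes -0.62, -0.31 and -0.38). Rises or falls of 0 to 2 genes in a list moved by at most 1 with a library left out, apart from the NF-κB, TNF and interleukin-1 falls (from 2 to 4 without the second treated App NL-G-F library).
With the ependymal covariate, log2 fold changes turned to 0.099 for C4b, 1.002 for Clu, 0.61 for Lrg1, -0.11 for Ppp4r3a, 0.13 for Rtn4rl1 and 0.16 for Ttr, and list medians to 0.24 for App and secretases, 1.496 for oligodendrocyte precursors, 0.043 for ependymal cells, 0.050 for choroid plexus and 0.42 for neutrophils. The astrocyte covariate turned the astrocyte median to -0.17.
On library totals, Ppp4r3a turned to -0.25 and Vim to -0.094, and the medians turned to -0.17 for complement, -0.020 for cholesterol efflux, -0.14 for immediate early genes and -0.22 for AD risk genes. A mean of at least 50 counts turned Ppp4r3a to -0.020 and App and secretases to 0.12.
Clu, at -0.002, became 0.013 with DESeq2 size factors, 0.014 with DESeq2, 0.008 without the filter, and 0.003 (edgeR) and 0.012 (DESeq2) with the treated libraries alone.
With each treated library left out in turn, the log2 fold change ranged from -0.34 to 0.32 for Clu, -0.39 to 0.19 for C4b and -0.087 to 0.020 for Rtn4rl1. The medians ranged from -0.015 to 0.30 for immediate early genes, -0.049 to 0.067 for App and secretases, -0.012 to 0.094 for AD risk genes, -0.095 to 0.55 for astrocytes and -1.37 to 0.10 for oligodendrocytes.
With 3 mice per group, levels under 0.168 to 0.241 CPM lay under the floor of 3 counts, and small differences between treatments could not be told from the spread.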
